A study of Mus musculus with 6 samples.

Results

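The 7 genes described here are the CCR2-binding chemokines Ccl2, Ccl7, Ccl8 and Ccl12, their receptor Ccr2, the growth factor Csf1 and its receptor Csf1r. They were taken by symbol, with no threshold on a measured value, and all 7 were present among the 32285 genes listed for one cell fraction and the 54752 genes listed for the other. Single-cell RNA-seq had been run on axillary and inguinal nodes from mice of the C57Bl/6 strain in 3 arms: mice bearing YUMMER1.7 melanoma, mice bearing YUMM1.7 melanoma, and tumour-free, naive mice. YUMM1.7 is a cultured mouse melanoma line with engineered driver mutations, and YUMMER1.7 is a clone derived from it after ultraviolet irradiation that carries more mutations and provokes a stronger immune response. The nodes of tumour-bearing mice drained the tumours, and nodes of several mice were pooled for each library. From each arm, 1 library held cells enriched with CD11b and CD11c beads (myeloid cells) and 1 held cells described as depleted of CD45-positive leukocytes (to reach the stroma). The labels give no tumour age, mouse age or sex.

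CCL2 (MCP-1), CCL7 (MCP-3), CCL8 and mouse CCL12 (MCP-5) are small secreted proteins that attract leukocytes. CCR2 is the receptor through which CCL2, CCL7 and CCL12 draw classical monocytes out of the bone marrow and into tissue, and mouse CCL8 has also been tied to CCR8. CSF1, secreted or held on the membrane, binds the tyrosine kinase CSF1R and keeps monocytes and macrophages alive. Subcapsular and medullary sinus macrophages of lymph nodes lie along the lymph and depend on CSF1 made by stromal cells.

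The 4 chemokine genes lie on the plus strand of chromosome 11 within 81229 bases (GRCm38, mm10), with Ccl11 between Ccl7 and Ccl12. Ccl2 spans chr11:82035571-82037453, Ccl7 chr11:82045712-82047525, Ccl12 chr11:82101845-82103400 and Ccl8 chr11:82115185-82116799. Ccr2 spans chr9:124101950-124113557 on the plus strand and Csf1 chr3:107741048-107760469 on the minus strand. The transcripts of the 4 chemokines share no stretch longer than 23 bases, that of Ccl2 and Ccl7. Ccl12 and Ccl8 are direct neighbours 11784 bases apart. In macrophage cluster 24, described next, the summed level of Ccl12 lay within a narrow range across the arms while that of Ccl8 did not. For that reason the 250 bases upstream of each transcription start are shown, from RefSeq (GRCm38.p6, plus strand, 5′ to 3′), Ccl8 at chr11:82114935-82115184 and Ccl12 at chr11:82101595-82101844, with the match to the TATA box motif TATAAA in capitals:
Ccl8: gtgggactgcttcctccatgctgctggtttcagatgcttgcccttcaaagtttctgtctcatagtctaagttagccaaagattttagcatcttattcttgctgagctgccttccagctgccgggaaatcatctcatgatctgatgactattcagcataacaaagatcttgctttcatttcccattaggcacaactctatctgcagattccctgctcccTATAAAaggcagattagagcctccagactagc
Ccl12: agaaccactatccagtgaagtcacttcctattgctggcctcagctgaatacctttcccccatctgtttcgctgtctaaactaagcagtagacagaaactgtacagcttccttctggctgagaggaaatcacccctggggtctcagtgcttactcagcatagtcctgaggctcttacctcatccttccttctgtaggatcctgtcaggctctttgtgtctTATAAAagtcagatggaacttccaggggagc
The TATAAA match lay 32 to 27 bases before the start of Ccl8 and 31 to 26 bases before that of Ccl12. A TATAAA on either strand was present in 12.4% of all 32851 promoter windows of this length. Neither window held a match, on either strand, to the interferon-stimulated response element (in 2.98% of all windows), to the AP-1 site TGANTCA (6.75%), to the STAT site TTCNNNGAA (7.02%) or to the NF-kB site (1.21%), and such a search says only that these letters are not in these windows. In a global alignment, 153 of 266 columns were identical (57.5%), and the longest run the windows shared was 8 bases. RefSeq windows were matched for 4 of the 7 genes.

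The 6 libraries held 6482 YUMMER1.7, 7086 YUMM1.7 and 9958 naive cells after filtering in the enriched fraction, and 6554, 8287 and 12381 cells, in the same order of arms, in the depleted fraction. The median unique molecular identifiers (UMIs, 1 per captured RNA molecule) per cell were 10170, 9401 and 6726 in the enriched fraction and ran from 4152 to 4888.5 in the depleted one. Between 6 and 35 cell barcodes were shared by any pair of libraries of 1 fraction. Itgam (CD11b) was detected in 44.3% of YUMMER1.7, 42.6% of YUMM1.7 and 23.7% of naive enriched cells. Ptprc (CD45) was still detected in 64.5% of YUMMER1.7, 86.0% of YUMM1.7 and 93.8% of naive depleted cells, so the depleted libraries were mostly leukocytes and stromal cells were few, above all in the naive one. Cells were clustered without the 7 genes and the clusters named from marker lists. These names mean cells like that type, by markers. A level is the gene's UMIs per 1000000 UMIs (CPM) of the summed cells of a cluster in 1 library. With 1 library per arm in each fraction there is no replicate, so no difference was tested, and the 95% intervals given cover counting error only.

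The macrophages of the enriched fraction were the main source of Ccl8 and Ccl12, and within them 1 cluster stood out for Ccl8. Cluster 24 was led by Cd209b, Cd5l, Marco, Timd4 and Folr2, genes of tissue-resident and sinus macrophages, and held 70 YUMMER1.7, 89 YUMM1.7 and 56 naive cells. Its Ccl8 level was 21296 CPM in YUMMER1.7, 19442 CPM in YUMM1.7 and 2826 CPM in naive nodes, from 41020, 45786 and 2784 UMIs. Both tumour libraries were far above the naive one and close to each other. The fold over naive was 7.53 (7.25 to 7.83) for YUMMER1.7 and 6.88 (6.62 to 7.15) for YUMM1.7. Ccl8 was detected in 98.6%, 100% and 98.2% of these cells in YUMMER1.7, YUMM1.7 and naive nodes, so the libraries differed in the amount per cell rather than in the share of cells with a UMI. The median cell held 209 Ccl8 UMIs per 10000 UMIs in YUMMER1.7, 156 in YUMM1.7 and 20.7 in naive nodes, and no cell held more than 6.79% of the cluster's Ccl8 UMIs in a library.

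The neighbouring gene Ccl12 stood at 1410 CPM in YUMMER1.7, 1476 CPM in YUMM1.7 and 1355 CPM in naive cells of the same cluster. These summed levels nearly coincided, with log2 ratios to naive of 0.06 (-0.04 to 0.15) for YUMMER1.7 and 0.12 (0.03 to 0.21) for YUMM1.7. The median cell differed, with 9.24 Ccl12 UMIs per 10000 UMIs in YUMMER1.7, 6.62 in YUMM1.7 and 2.29 in naive nodes. The single highest cell held 9.06%, 10.4% and 14.4% of the cluster's Ccl12 UMIs in the same order. The near agreement therefore holds for the sums and not for the typical cell. The macrophage marker list did not separate the arms to the degree that Ccl8 did. Of its 13 genes, 12 were detected in each library, Vsig4 alone being at 0, and their summed level was 18089 CPM in YUMMER1.7, 17304 CPM in YUMM1.7 and 13458 CPM in naive cells. Median UMIs per cell of the cluster also differed, 28118 in YUMMER1.7, 26449 in YUMM1.7 and 17773 in naive nodes. The part of depth and marker level in the Ccl8 difference was not tested. Thinning reduced each cell with at least 2000 UMIs to that number and left out shallower cells. After it the log2 ratio of Ccl8 over the macrophage class was 2.66 for YUMMER1.7 over naive and 2.99 for YUMM1.7 over naive.

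Ccl7 and Ccl2 followed another order in cluster 24. Ccl7 reached 862 CPM in YUMMER1.7, 473 CPM in YUMM1.7 and 636 CPM in naive cells. Ccl2 reached 476 CPM in YUMMER1.7, 232 CPM in YUMM1.7 and 408 CPM in naive cells. For both genes YUMM1.7 was the lowest of the 3 libraries and YUMMER1.7 the highest. The log2 ratio of YUMM1.7 to naive was -0.43 for Ccl7 and -0.82 for Ccl2, and that of YUMMER1.7 to YUMM1.7 was 0.87 for Ccl7 and 1.04 for Ccl2. Leaving out the cell with most UMIs of the gene in each library gave 0.91 and 1.09 for the YUMMER1.7 to YUMM1.7 ratios.

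The other macrophage cluster, 15, was led by Pf4, C1qa, Mertk, C1qb and Apoe and held 226 YUMMER1.7, 189 YUMM1.7 and 186 naive cells. Here the summed levels of Ccl2, Ccl7 and Ccl8 all stood in the order YUMMER1.7, YUMM1.7, naive. Ccl2 was 206 CPM in YUMMER1.7, 131 CPM in YUMM1.7 and 71.2 CPM in naive cells, with log2 ratios to naive of 1.53 (1.31 to 1.76) and 0.88 (0.64 to 1.13). Ccl7 was 81.1 CPM in YUMMER1.7, 53.7 CPM in YUMM1.7 and 15.9 CPM in naive cells, with log2 ratios to naive of 2.35 and 1.76. Ccl8 was 425 CPM in YUMMER1.7, 304 CPM in YUMM1.7 and 194 CPM in naive cells, of which the single highest cell held 20.8%, 26.6% and 12.5%. The median cell held only 0.444 Ccl8 UMIs per 10000 UMIs in YUMMER1.7, 0.440 in YUMM1.7 and 0 in naive nodes. The upper quartiles were 1.54, 1.39 and 0.842. The summed Ccl8 levels of this cluster therefore rest mostly on a minority of high cells. Ccl12 showed no such order, at 382 CPM in YUMMER1.7, 281 CPM in YUMM1.7 and 351 CPM in naive cells. Between these 2 clusters, the ratio of the tumour arms to naive was larger in cluster 24 for Ccl8 and in cluster 15 for Ccl2 and Ccl7.

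A further cluster that shared leading genes with cluster 24 (Marco, Cd209b, Timd4) was too shallow to be named, with median UMIs per cell of 1570 in YUMMER1.7, 1255 in YUMM1.7 and 1059 in naive nodes. This cluster, 11, held 85 YUMMER1.7, 172 YUMM1.7 and 711 naive cells, and 41.3% of all naive Ccl8 UMIs against 6.27% in YUMMER1.7 and 7.98% in YUMM1.7. Its Ccl8 level was 18457 CPM in YUMMER1.7, 14804 CPM in YUMM1.7 and 4279 CPM in naive cells. Ccl12 there was 2494 CPM in YUMMER1.7, 1851 CPM in YUMM1.7 and 1202 CPM in naive cells. Its summed level, unlike that in cluster 24, thus stood well above naive in both tumour arms. With clusters 11, 15 and 24 summed, Ccl8 was 7090 CPM in YUMMER1.7, 8689 CPM in YUMM1.7 and 1589 CPM in naive cells, which was 4.46-fold and 5.47-fold over naive. Clusters 11 and 24 together were 2.39% of YUMMER1.7, 3.68% of YUMM1.7 and 7.70% of naive enriched cells and held 89.6%, 90.3% and 66.9% of those libraries' Ccl8 UMIs.

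**Figure D1:**
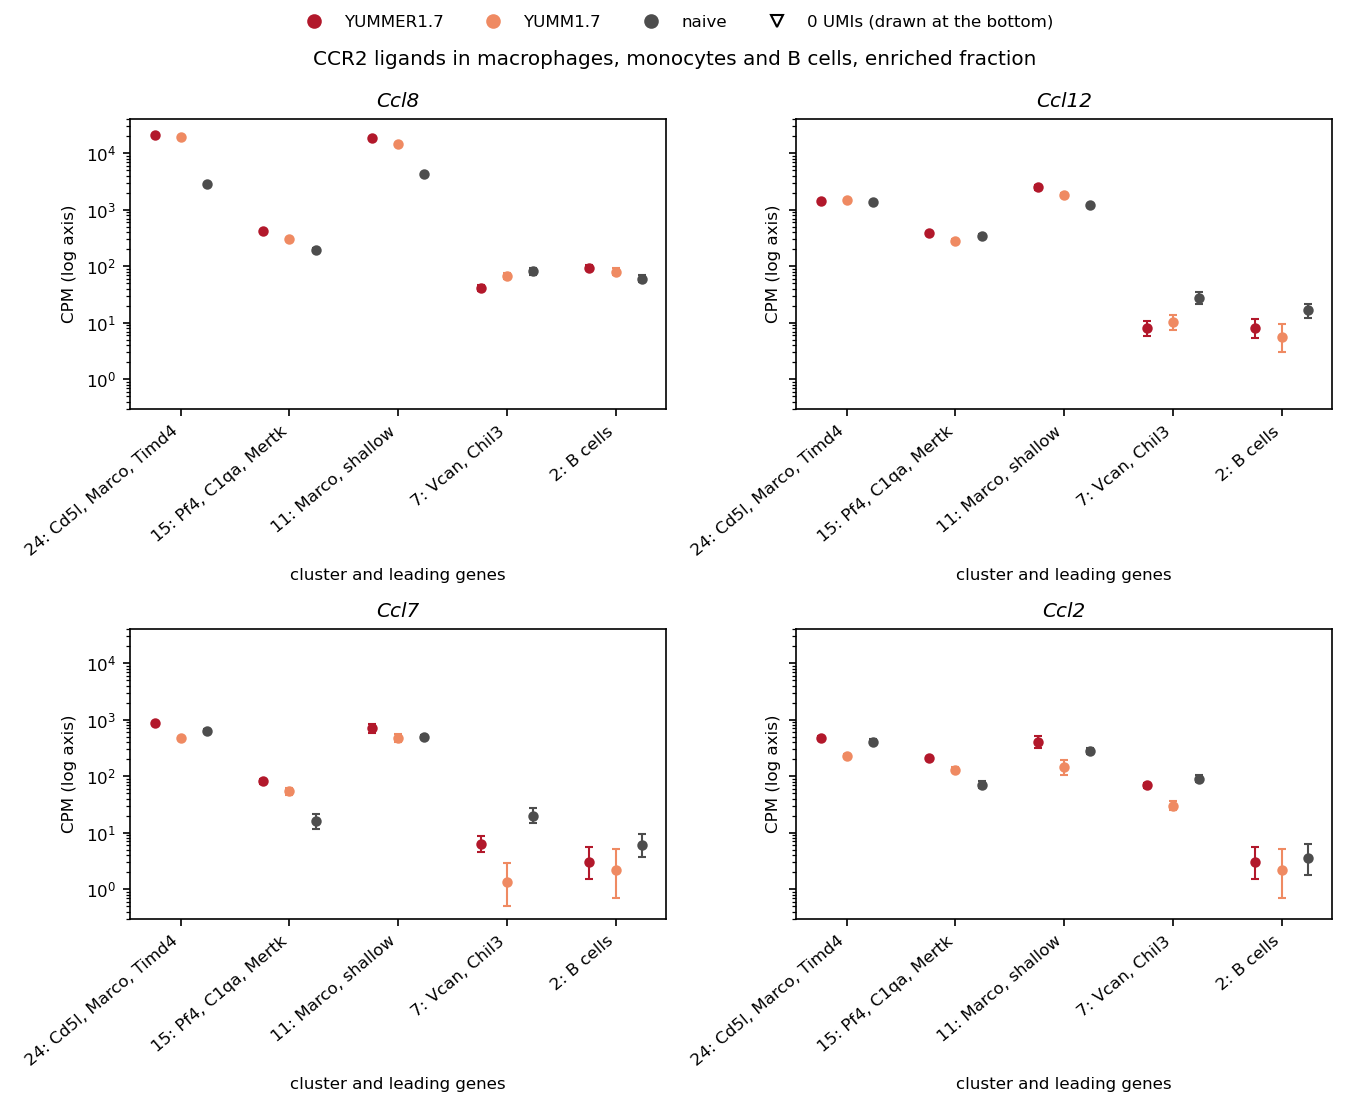
Levels of the 4 CCR2 ligands (CPM, log axis) in 3 macrophage-marked clusters, a monocyte cluster and B cells of the enriched fraction. Points are single libraries (YUMMER1.7, YUMM1.7 and naive from left to right) and bars are exact Poisson 95% intervals. In cluster 24 the Ccl8 points of the tumour arms lie at 21296 and 19442 CPM above the naive point at 2826 CPM, while the 3 Ccl12 points lie between 1355 and 1476 CPM.

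Ccl8 UMIs also appeared in cells that are not known to make it. In B cells of the enriched fraction Ccl8 stood at 95.2 CPM in YUMMER1.7, 80.6 CPM in YUMM1.7 and 60.5 CPM in naive nodes, with a UMI in 30.5%, 31.4% and 12.9% of cells. Among cells with at least 2000 UMIs, thinned to that depth, a Ccl8 UMI was found in 37.9% of YUMMER1.7, 47.1% of YUMM1.7 and 31.1% of naive macrophages. The shares of B cells were 16.7%, 15.5% and 9.85%. The classes below macrophages, from NK cells at 93.7 to 151 CPM down to plasma cells at 12.6 to 27.7 CPM, each overlapped with the next in order over the libraries, except fibroblastic cells (36.0 CPM in the 1 library with enough of them) and cDC1 (23.3 to 34.0 CPM), and Ccl8 levels in that range are read as background. Ccl12 outside macrophages was at most 37.8 CPM. In B cells of the enriched fraction Ccl2 was 3.07 CPM in YUMMER1.7, 2.17 CPM in YUMM1.7 and 3.52 CPM in naive nodes, so the background was much lower for Ccl2 than for Ccl8.

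Macrophages that made Ccl2 often made Ccl7 as well. Of macrophages with a Ccl2 UMI, 62.3% in YUMMER1.7, 54.5% in YUMM1.7 and 43.1% in naive nodes also had a Ccl7 UMI, against 24.6%, 15.6% and 10.7% of macrophages without one. Deeper cells are more likely to show any gene, and the part of depth in this was not tested. As whole classes, monocytes had lower Ccl2 and Ccl7 levels than macrophages. Over the libraries Ccl2 was 26.1 to 56.9 CPM in monocytes and 157 to 288 CPM in macrophages. Ccl7 in macrophages was 173 to 319 CPM. By cluster this did not always hold for Ccl2. The naive level of cluster 7, given next, was above that of the Mertk- and Apoe-led macrophage cluster. In Vcan-, F13a1- and Chil3-led cluster 7, Ccl2 was 68.8 CPM in YUMMER1.7, 30.3 CPM in YUMM1.7 and 90.2 CPM in naive cells, the log2 ratio of YUMM1.7 to naive being -1.58 (-1.90 to -1.25). Ccl7 over all monocytes was 5.06 CPM in YUMMER1.7, 2.34 CPM in YUMM1.7 and 12.8 CPM in naive cells.

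Relative to all UMIs, Ccl2 and Ccl7 were highest in a handful of mast cells and not in macrophages. Cluster 29 of the enriched fraction, led by the mast cell proteases Mcpt4, Cma1 and Tpsb2, held 14 YUMMER1.7, 7 YUMM1.7 and 16 naive cells. Its Ccl2 level was 2854 CPM in YUMMER1.7, 2080 CPM in YUMM1.7 and 4189 CPM in naive cells, from 316, 123 and 509 UMIs. Its Ccl7 level was 5500 CPM in YUMMER1.7, 2351 CPM in YUMM1.7 and 2790 CPM in naive cells. A single cell held 51.1% of the YUMM1.7 and 39.8% of the naive Ccl7 UMIs of the cluster, so no order of the arms is read from it. The same kind of cell appeared in the depleted fraction as cluster 24 there, with 13 YUMMER1.7, 13 YUMM1.7 and 8 naive cells and Ccl2 at 4567 CPM in YUMMER1.7, 1640 CPM in YUMM1.7 and 1437 CPM in naive nodes. In cluster 29 of the enriched fraction, 6 of the 13 macrophage markers were detected in YUMMER1.7, 9 in YUMM1.7 and 7 in naive cells. They summed to 108 CPM in YUMMER1.7, 1438 CPM in YUMM1.7 and 230 CPM in naive cells, and their part in its chemokine levels was not tested. In cluster 24 of the depleted fraction, 10 or more of the 13 were at 0 in each library. The mast cell marker list itself summed to 150881 CPM in YUMMER1.7, 60403 CPM in YUMM1.7 and 36143 CPM in naive cells of it, and its part in the Ccl2 order was not tested.

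Cells with basophil genes (Mcpt8, Ccl3, Il6) had another pattern, with much Csf1 and little or no Ccl2 and Ccl7. In cluster 28 of the enriched fraction, with 34 YUMMER1.7, 20 YUMM1.7 and 1 naive cells, Csf1 was 1645 CPM in YUMMER1.7 and 1079 CPM in YUMM1.7 cells, and Ccl2 and Ccl7 had 0 UMIs in each arm, which allows up to 21.7 CPM in YUMMER1.7 and 27.4 CPM in YUMM1.7. In cluster 22 of the depleted fraction, with 93 YUMMER1.7, 103 YUMM1.7 and 17 naive cells, Csf1 was 1324 CPM in YUMMER1.7, 1800 CPM in YUMM1.7 and 1174 CPM in naive cells, and Ccl2 was 13.3 CPM in YUMMER1.7, 6.81 CPM in YUMM1.7 and 9.39 CPM in naive cells. In the Mcpt4-led cluster of the same fraction Csf1 was 41.1 CPM in YUMMER1.7, 141 CPM in YUMM1.7 and 208 CPM in naive cells. In the Mcpt4-led cluster of the enriched fraction Csf1 was 45.2 CPM in YUMMER1.7, 135 CPM in YUMM1.7 and 82.3 CPM in naive cells, from 5, 8 and 10 UMIs. Csf1 was thus present in both kinds of cell and at a higher level in those with basophil genes.

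Among stromal cells, fibroblastic cells were the source of Ccl2 and Ccl7. The naive depleted library held 8 such cells, so only the tumour arms are compared. Cluster 14, led by Cxcl13 and Ccl19, genes of fibroblastic reticular cells, held 315 YUMMER1.7 and 177 YUMM1.7 cells. Its Ccl2 level was 516 CPM in YUMMER1.7 and 344 CPM in YUMM1.7, a log2 ratio of 0.59 (0.49 to 0.68). Its Ccl7 level was 248 CPM in YUMMER1.7 and 157 CPM in YUMM1.7, a log2 ratio of 0.66. Csf1 was nearly level, at 110 CPM in YUMMER1.7 and 119 CPM in YUMM1.7, a log2 ratio of -0.11 (-0.29 to 0.07). The fibroblastic marker list was nearly level too, with all 10 genes detected and a summed 24827 CPM in YUMMER1.7 and 23895 CPM in YUMM1.7.

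Cluster 21, led by Mgp, Mfap5 and Col1a1, genes of collagen-rich adventitial fibroblasts, held 115 YUMMER1.7 and 98 YUMM1.7 cells. Ccl2 was 331 CPM in YUMMER1.7 and 203 CPM in YUMM1.7, a log2 ratio of 0.71, but the single highest cell held 21% of the YUMMER1.7 and 33.7% of the YUMM1.7 UMIs. Ccl7 was 256 CPM in YUMMER1.7 and 233 CPM in YUMM1.7, a log2 ratio of 0.14 (-0.07 to 0.35). Of the Ccl8 UMIs in kept cells of the depleted fraction, cluster 21 held 44.6% in YUMMER1.7 and 50.4% in YUMM1.7. Its level was 46.8 CPM in YUMMER1.7 and 50.05 CPM in YUMM1.7, against 2.07 and 1.94 CPM in cluster 14 of the same arms. Kept YUMM1.7 cells held only 129 Ccl8 UMIs, while YUMM1.7 cells removed as likely doublets held 855. The YUMM1.7 share therefore holds for kept cells only. Macrophage markers in cluster 21 summed to 15.1 CPM in YUMMER1.7 and 21.6 CPM in YUMM1.7, with Cd5l and Vsig4 at 0 in both.

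Lymphatic endothelial cells had more Csf1 than Ccl2 UMIs in both of their clusters. In cluster 23, led by Ccl20 and Cxcl9, Csf1 was 411 CPM in YUMMER1.7 (90 cells), 467 CPM in YUMM1.7 (67 cells) and 661 CPM in naive nodes (13 cells, 108 UMIs). In cluster 20, led by Mmrn1 and Stab2, Csf1 was 132 CPM in YUMMER1.7, 165 CPM in YUMM1.7 and 171 CPM in naive nodes (8 cells). In both clusters the YUMMER1.7 level was the lowest, and the naive level rests on few cells. Ccl2 in cluster 23 was 95.2 CPM in YUMMER1.7, 56.7 CPM in YUMM1.7 and 6.12 CPM (1 UMI) in naive cells, the log2 ratio of YUMMER1.7 to YUMM1.7 being 0.75. Blood endothelial cells had Csf1 at 19.5 CPM in YUMMER1.7 and 27.4 CPM in YUMM1.7.

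**Figure D2:**
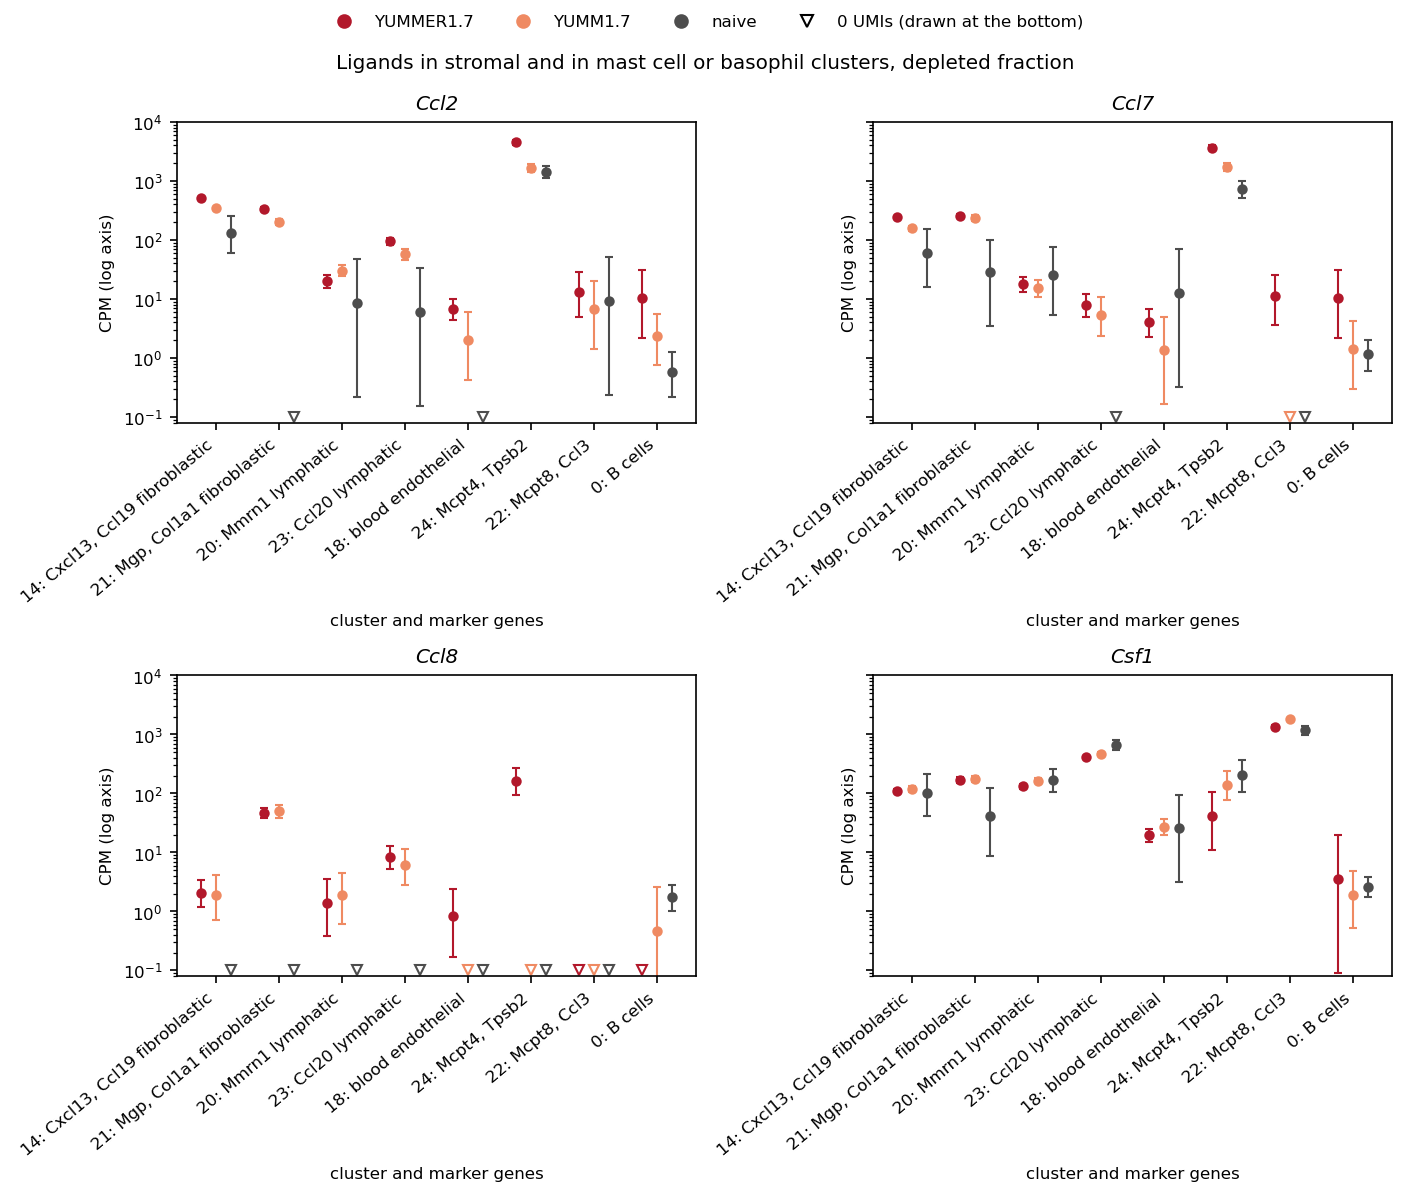
Levels of Ccl2, Ccl7, Ccl8 and Csf1 (CPM, log axis) in stromal clusters, in the Mcpt4-led and Mcpt8-led clusters and in B cells of the depleted fraction, 1 point per library with exact Poisson 95% intervals; open triangles mark 0 UMIs. Ccl2 and Ccl7 are high in the fibroblastic and Mcpt4-led clusters, and Csf1 in the lymphatic and Mcpt8-led ones, up to 1800 CPM in YUMM1.7.

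Csf1 in the enriched fraction came from neutrophils, migratory dendritic cells and the Mcpt8-led cells. In neutrophil cluster 5, led by Acod1, Cxcl2 and Cxcr2, genes of activated mature neutrophils, Csf1 was 424 CPM in YUMMER1.7, 229 CPM in YUMM1.7 and 119 CPM in naive nodes (442, 368 and 628 cells). The 3 libraries were well apart, with log2 ratios to naive of 1.83 (1.62 to 2.05) for YUMMER1.7 and 0.94 (0.68 to 1.21) for YUMM1.7. The immature neutrophils of cluster 17 (Camp, Ngp, Ltf) had Csf1 at 17.7 CPM in YUMMER1.7, 2.41 CPM in YUMM1.7 and 7.04 CPM in naive nodes. Cluster 5 also had Ccl2 at 59.0 CPM in YUMMER1.7, 8.87 CPM in YUMM1.7 and 15.1 CPM in naive cells, from 102, 9 and 30 UMIs. The median depth of a cluster 5 cell over the 3 libraries was 2889 UMIs, which is 0.345 of that of its libraries. Clusters 3 and 13 of the migratory dendritic cells went opposite ways. Csf1 was 53.0 CPM in YUMMER1.7, 53.4 CPM in YUMM1.7 and 32.2 CPM in naive cells of cluster 3. In Ccl17- and Ccl22-led cluster 13 it was 34.8 CPM in YUMMER1.7, 42.3 CPM in YUMM1.7 and 79.6 CPM in naive cells. A further cluster of this class, 9, held 394 YUMMER1.7, 348 YUMM1.7 and 297 naive cells and is not described here. Over the whole class Csf1 was 22.3 to 40.9 CPM in the libraries.

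Ccr2 was highest in monocytes. In cluster 7, led by genes of classical monocytes such as Vcan and Chil3, Ccr2 was 729 CPM in YUMMER1.7, 965 CPM in YUMM1.7 and 1148 CPM in naive nodes, with a UMI in 94.6%, 94.2% and 97.2% of cells. YUMMER1.7 was the lowest and naive the highest, with log2 ratios to naive of -0.66 (-0.73 to -0.58) and -0.25 (-0.32 to -0.18). Cluster 1 had Ccr2 at 455 CPM in YUMMER1.7, 703 CPM in YUMM1.7 and 543 CPM in naive cells. Its leading genes mixed Ace and Treml4 of the non-classical monocyte list, Plac8 and Ly6c2 of the other monocyte list, and interferon-induced Ifit2 and Ifit3. A Ccr2 UMI was found in 640 of 790 YUMMER1.7, 626 of 724 YUMM1.7 and 189 of 280 naive cells of it. The part of this mix in its order of the arms, and in the sum of the 3 clusters below, was not tested. Cluster 4, led by Ly6i, Pltp, Spon1 and Tgfbi and left unnamed though all 10 monocyte markers were detected, had Ccr2 at 441 CPM in YUMMER1.7, 650 CPM in YUMM1.7 and 728 CPM in naive cells. In all 3 clusters YUMMER1.7 was below YUMM1.7, by log2 ratios of -0.41, -0.63 and -0.56, and only cluster 1 had YUMM1.7 above naive. Together the 3 clusters had Ccr2 at 518 CPM in YUMMER1.7, 749 CPM in YUMM1.7 and 806 CPM in naive cells.

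Csf1r, measured in the same cells, stayed close to level. In the 3 clusters together it was 407 CPM in YUMMER1.7, 445 CPM in YUMM1.7 and 400 CPM in naive cells, with log2 ratios to naive of 0.02 and 0.15. At 2000 UMIs per cell a Ccr2 UMI was found in 55.4% of YUMMER1.7, 69.0% of YUMM1.7 and 63.7% of naive cells of the monocyte class, so by this share YUMM1.7 and not naive was the highest. At that depth B cells had a Ccr2 UMI in 0.510% of YUMMER1.7, 1.66% of YUMM1.7 and 1.52% of naive cells. Of monocytes with Ccr2, 97.1% in YUMMER1.7, 95.6% in YUMM1.7 and 90.7% in naive nodes also had Csf1r.

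Macrophages had the most Csf1r, 534 CPM in YUMMER1.7, 580 CPM in YUMM1.7 and 571 CPM in naive nodes, and the ranges over the libraries of macrophages, monocytes (412 to 457 CPM), cDC2 (128 to 141 CPM) and neutrophils (65.3 to 76.3 CPM) did not overlap. The macrophage clusters differed in Ccr2. Cluster 15 had 227 CPM in YUMMER1.7, 251 CPM in YUMM1.7 and 217 CPM in naive nodes, whereas the Ccl8-rich cluster 24 had 16.6 CPM in YUMMER1.7, 14 CPM in YUMM1.7 and 33.5 CPM in naive nodes. The cells richest in Ccl8 were thus poor in the receptor Ccr2.

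The largest difference between arms in Ccr2 among the clusters described here was in cDC1. In these cells (Xcr1, Clec9a) Ccr2 was 17.5 CPM in YUMMER1.7, 53.6 CPM in YUMM1.7 and 132 CPM in naive nodes, from 46, 189 and 496 UMIs in 116, 161 and 196 cells. The log2 ratio to naive was -2.91 (-3.38 to -2.47) for YUMMER1.7 and -1.30 (-1.55 to -1.05) for YUMM1.7. At 2000 UMIs per cell, 3.51% of YUMMER1.7, 12.3% of YUMM1.7 and 23.6% of naive cDC1 had a Ccr2 UMI. In the cDC2 class Ccr2 was 88.8 CPM in YUMMER1.7, 149 CPM in YUMM1.7 and 273 CPM in naive nodes, but that class mixes clusters of unlike level. Cluster 14 (Mmp12, Mgl2, Lpl) had 357 CPM in YUMMER1.7, 551 CPM in YUMM1.7 and 507 CPM in naive cells, and cluster 0 (Klri1, Ctnnd2) 46.7 CPM in YUMMER1.7, 70.7 CPM in YUMM1.7 and 89.4 CPM in naive cells.

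Lymphocytes carried Ccr2 too. NK cells of the enriched fraction had Ccr2 at 255 CPM in YUMMER1.7, 335 CPM in YUMM1.7 and 354 CPM in naive nodes, and innate-like lymphocytes (Il23r, Cxcr6, Zbtb16) at 262 CPM in YUMMER1.7, 270 CPM in YUMM1.7 and 332 CPM in naive nodes. Over the libraries these ranges overlapped with each other and with those of cDC2, and all lay below those of monocytes. In the depleted fraction the T cell cluster 12 (Ikzf2, Il2ra, Ctla4, genes of regulatory T cells) had Ccr2 at 274 CPM in YUMMER1.7, 179 CPM in YUMM1.7 and 113 CPM in naive nodes, with 30, 156 and 428 cells. There the order of the arms was the reverse of that in monocyte cluster 7 and in cDC1, with log2 ratios to naive of 1.28 and 0.66. T cell cluster 16 (Gzmb, Lgals1, Il2ra) had 121 CPM in YUMMER1.7, 167 CPM in YUMM1.7 and 91.2 CPM in naive nodes. Plasmacytoid dendritic cells of the depleted fraction had Ccr2 at 55.4 CPM in YUMMER1.7, 61.6 CPM in YUMM1.7 and 80.0 CPM in naive nodes. Cluster 17 of the same fraction, led by Lyz2 and Plbd1 and holding cDC1 markers such as Cadm1 and Naaa, had Ccr2 at 140 CPM in YUMMER1.7, 262 CPM in YUMM1.7 and 173 CPM in naive nodes. Csf1r there was 99.99 CPM in YUMMER1.7, 33.6 CPM in YUMM1.7 and 50.6 CPM in naive nodes. The macrophage markers of that cluster summed to 761 CPM in YUMMER1.7, 69.0 CPM in YUMM1.7 and 581 CPM in naive nodes. Its monocyte markers, all 10 detected in each library, summed to 5566 CPM in YUMMER1.7, 3685 CPM in YUMM1.7 and 2250 CPM in naive nodes. The part of either list in the Ccr2 and Csf1r levels was not tested.

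**Figure D3:**
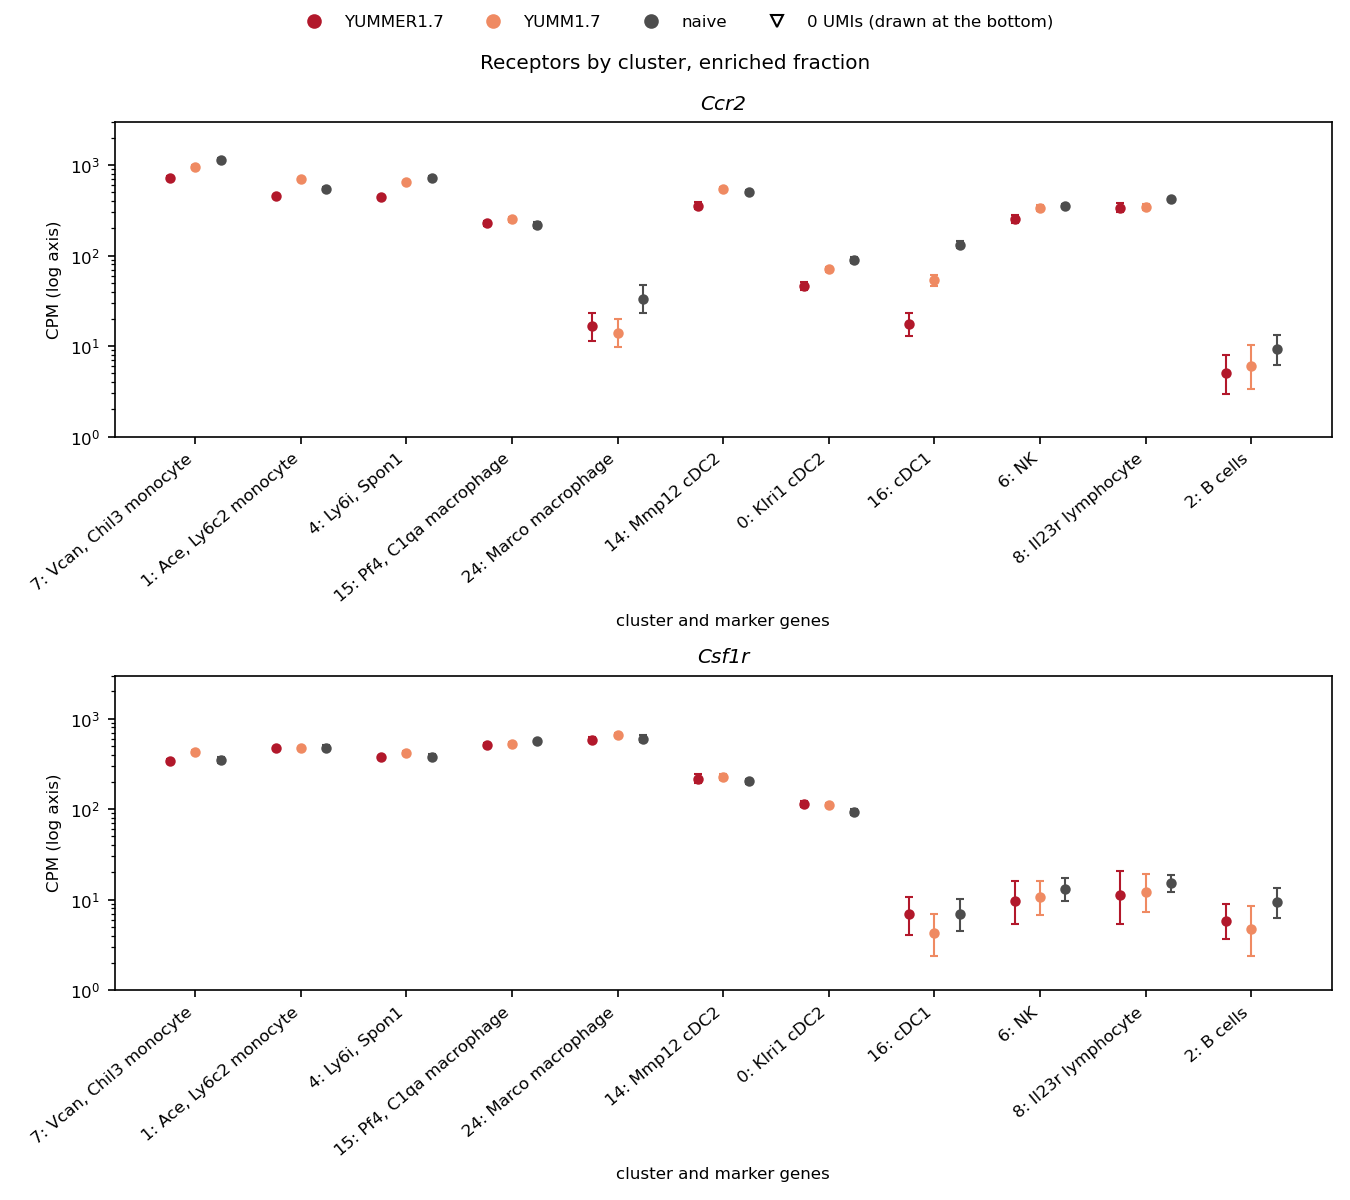
Levels of Ccr2 (top) and Csf1r (bottom) in 11 clusters of the enriched fraction (CPM, log axis), 1 point per library with exact Poisson 95% intervals. Ccr2 in cluster 7 lies at 729, 965 and 1148 CPM in YUMMER1.7, YUMM1.7 and naive nodes, and in cDC1 at 17.5, 53.6 and 132 CPM, while the Csf1r points of each monocyte and macrophage cluster lie close together.

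Over whole libraries these sources summed differently in the arms, and their cell numbers also differed. In the enriched fraction Ccl8 was 696 CPM in YUMMER1.7, 787 CPM in YUMM1.7 and 140 CPM in naive nodes, and Ccl12 was 79.8 CPM in YUMMER1.7, 84.9 CPM in YUMM1.7 and 63.5 CPM in naive nodes. Ccl2 was 48.9 CPM in YUMMER1.7, 27.0 CPM in YUMM1.7 and 29.5 CPM in naive nodes, of which the named macrophage class held 52.7%, 50.8% and 26.6% of the UMIs. That class leaves out shallow cluster 11, which held 711 naive cells. Clusters 11 and 24 together held 28.4%, 30.9% and 30.6% of the Ccl2 UMIs. The low naive share of the class thus depends in part on the naming rule. Of Ccr2 UMIs, the named monocyte class held 57.6% in YUMMER1.7, 50.6% in YUMM1.7 and 25.6% in naive nodes, where cDC2 held 24.8% and innate-like lymphocytes 16.2%. That class leaves out the unnamed cluster 4 with its monocyte markers. There 435 of 550 YUMMER1.7, 545 of 650 YUMM1.7 and 255 of 291 naive cells had a Ccr2 UMI. The monocyte shares would therefore be higher with cluster 4 counted. Of Csf1 UMIs, neutrophils held 52.3% in YUMMER1.7, 23.6% in YUMM1.7 and 18.3% in naive nodes, and migratory dendritic cells 16.5%, 41.8% and 68.6%. In the depleted fraction Ccl2 was 95.1 CPM in YUMMER1.7, 26.1 CPM in YUMM1.7 and 2.05 CPM in naive nodes. Fibroblastic cells held 77.6% of those UMIs in YUMMER1.7 and 73.0% in YUMM1.7, but they were 6.56% of YUMMER1.7, 3.32% of YUMM1.7 and 0.0646% of naive kept cells, so cell numbers and library level moved together. Csf1 in that fraction was 58.1 CPM in YUMMER1.7, 40.5 CPM in YUMM1.7 and 9.23 CPM in naive nodes, and lymphatic endothelial cells held 39.8%, 39.5% and 19.4% of it. Cells removed as likely doublets held 5026 Ccl8 UMIs in YUMMER1.7, 6110 in YUMM1.7 and 771 in naive enriched libraries, and 855 in the YUMM1.7 depleted library.

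**Figure D4:**
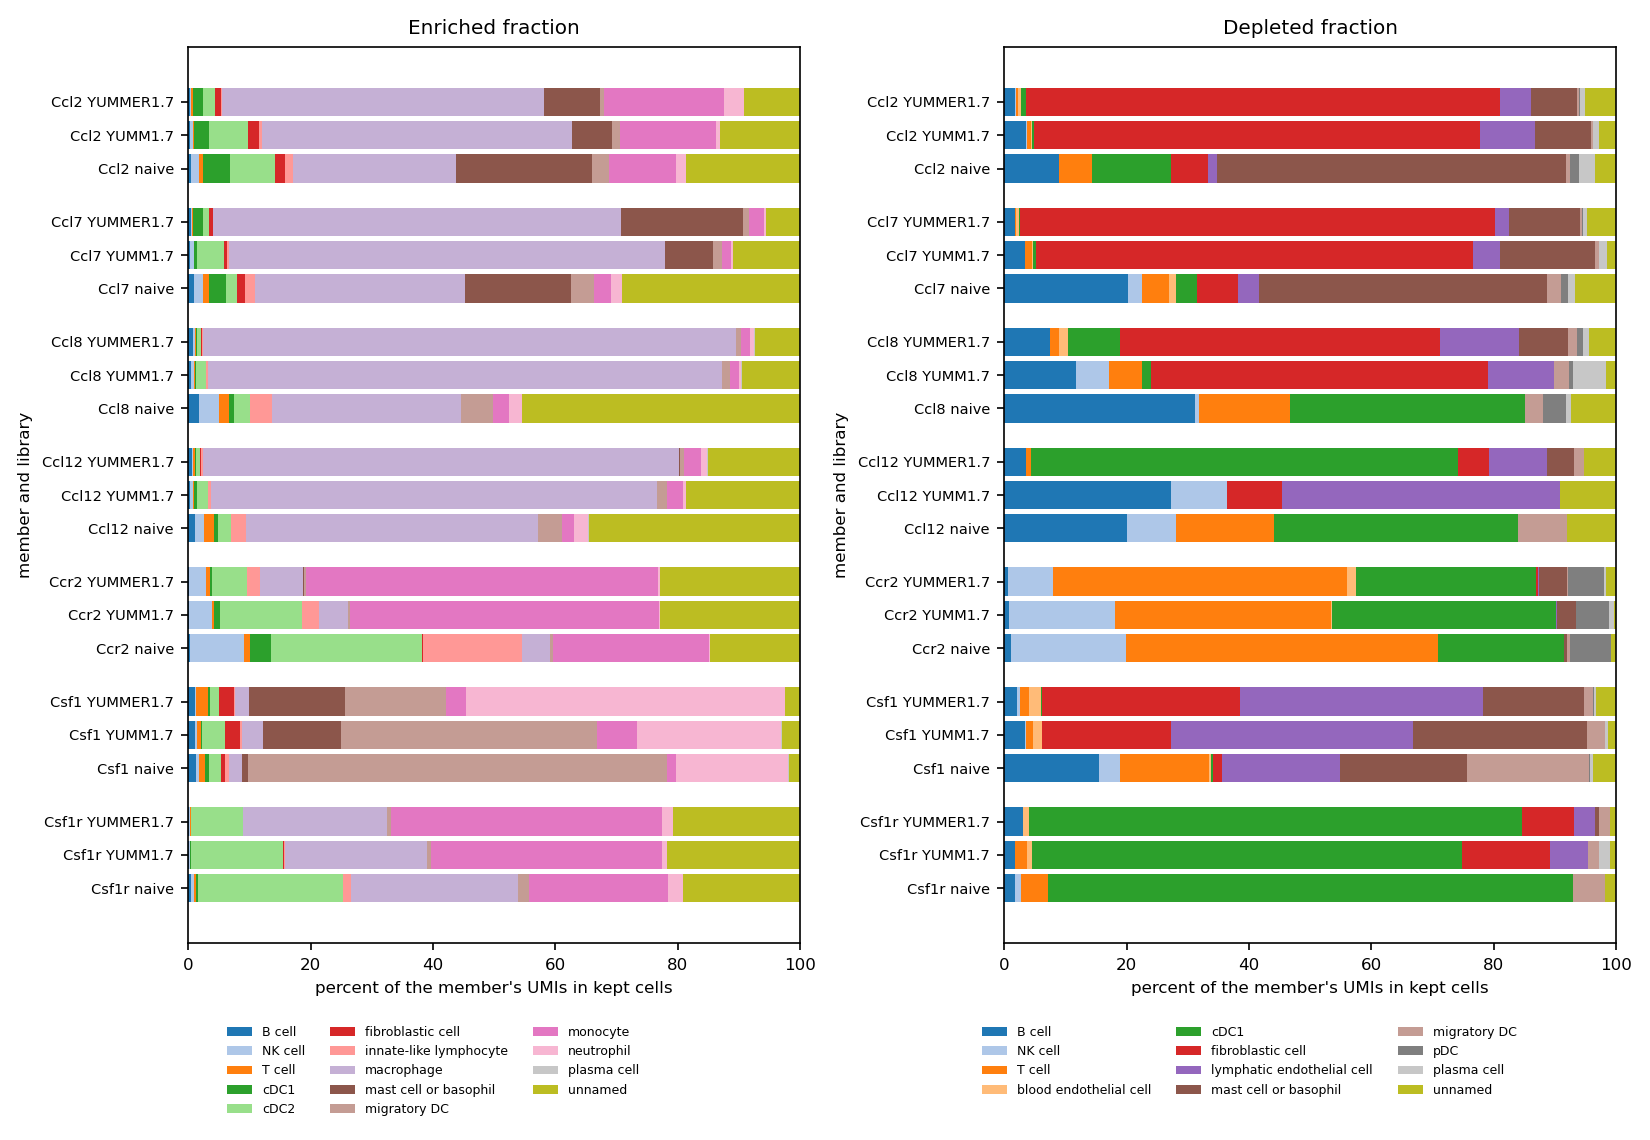
Share of each gene's UMIs held by each class of cells in each library (stacked bars, percent of the gene's UMIs in kept cells), enriched fraction left and depleted fraction right. The named macrophage class (without cluster 11) holds most Ccl8 and Ccl12 UMIs of the tumour arms. In YUMMER1.7 the named monocyte class (without cluster 4) holds 57.6% of the Ccr2 UMIs, and fibroblastic cells 77.6% of the depleted-fraction Ccl2 UMIs.

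**Figure D5:**
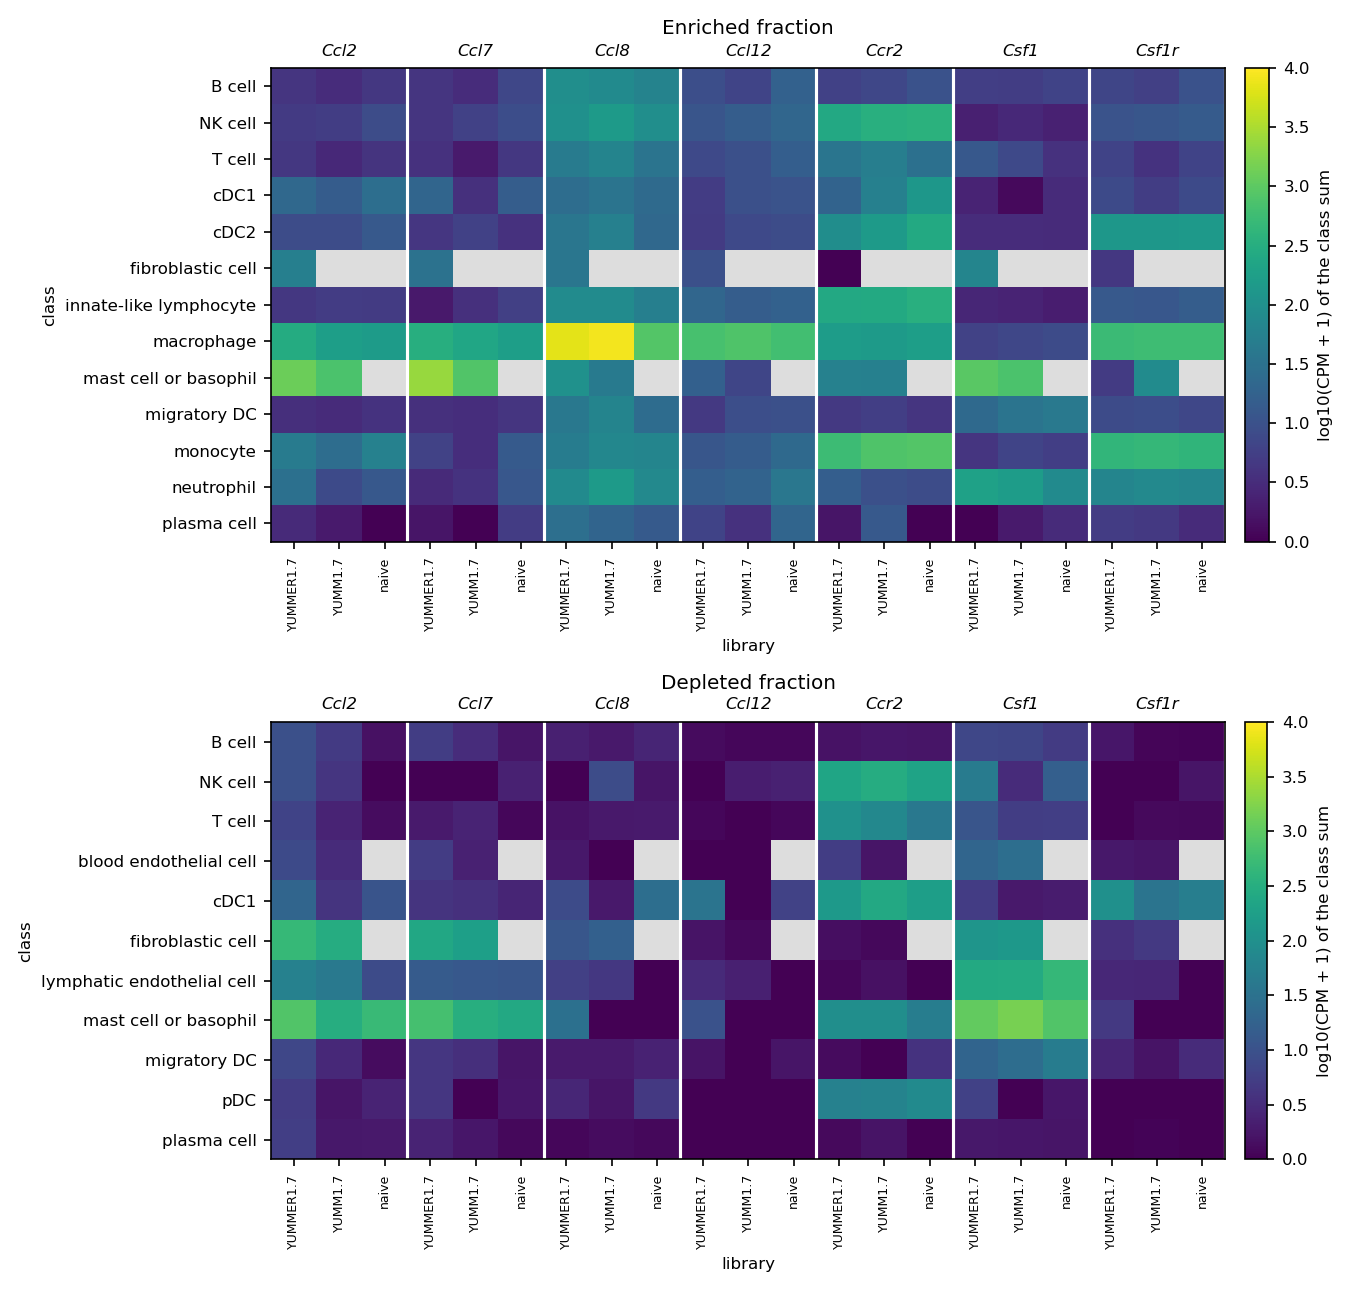
Level of the 7 genes, log10(CPM + 1), in each class with at least 20 cells in each library; grey marks classes with fewer. Ccl8 and Ccl12 are brightest in macrophages, Ccr2 in monocytes, Ccl2 and Ccl7 in the mast cell or basophil class and Csf1 in that class and in lymphatic endothelium.

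Few of the 7 members differed by over 2-fold in a class, and each count is given with the share of all genes past the same fold. In macrophages, 1 of 7 members (Ccl8) was over 2-fold higher in YUMMER1.7 than in naive nodes, where 4.06% of all genes with at least 10 UMIs were, and 1 of 7 (Ccl8) in YUMM1.7, where 3.36% were. None of the 7 was over 2-fold lower, where 5.34% of genes were in YUMMER1.7 and 5.28% in YUMM1.7. In cluster 24, of 6 members measured, Ccl8 was higher and Ccr2 lower in both tumour arms, beside 5.28% of genes higher and 8.83% lower in YUMMER1.7 and 5.05% higher and 8.36% lower in YUMM1.7. In monocytes none of 7 was higher (5.37% of genes in YUMMER1.7, 4.09% in YUMM1.7), and 2 were lower in each arm, Ccl7 and Ccl12 in YUMMER1.7 (6.56% of genes) and Ccl2 and Ccl7 in YUMM1.7 (4.82%). Over the libraries, monocyte Ccl7 (2.34 to 12.8 CPM) overlapped with B cells (2.17 to 6.09 CPM). Monocyte Ccl12 (10.6 to 22.2 CPM) did so too (B cells 5.63 to 16.7 CPM). These 2 genes therefore lie near the background in monocytes, and no difference of the arms is read from them. In fibroblastic cells none of 5 members measured differed by over 2-fold between YUMMER1.7 and YUMM1.7, where 3.49% of genes were higher and 6.10% lower.

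Other genes of the pathways were read from 6 lists of 38 genes in all. The lists covered further inflammatory CC chemokines and their receptors, the fractalkine pair, CSF1R-related genes, other colony stimulating factors and cytokines that induce CCL2. They were chosen with earlier results of these data known, so their counts and medians are a description only. The shares of all genes with at least 10 UMIs past the same fold are those given above for each class and comparison. In macrophages 27 were measured, and 5 were over 2-fold higher in YUMMER1.7 than in naive nodes (Ccl6, Ccl9, Ccl24, Ccr1 and Il6) and 1 lower (Ackr1). In YUMM1.7 the first 3 and Il6 were higher and Ackr1 and Ccl5 lower. Ccl6, a chemokine for CCR1, was 475 CPM in YUMMER1.7, 345 CPM in YUMM1.7 and 49.2 CPM in naive macrophages, and Ccl9, which also binds CCR1, was 231 CPM in YUMMER1.7, 186 CPM in YUMM1.7 and 74.0 CPM in naive ones. Ccl24, a CCR3 ligand, was 28.3 CPM in YUMMER1.7, 14.3 CPM in YUMM1.7 and 3.87 CPM in naive macrophages. The median log2 ratio of the 6 measured chemokines of that list was 1.10 in YUMMER1.7 and 0.62 in YUMM1.7, beside -0.08 and -0.06 over all genes.

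In cluster 24, of 23 measured, those over 2-fold higher in YUMMER1.7 included Ccl6 and Cx3cr1, and Ccl5, Ccrl2 and Tnf were lower, while in YUMM1.7 those higher included Ccl6, and Ccl5, Ccrl2, Tnf and Il1b were lower. In cluster 24 Ccl6 was 323 CPM in YUMMER1.7, 267 CPM in YUMM1.7 and 53.8 CPM in naive cells, so Ccl8 was not alone in its direction there. In monocytes, of 27 measured, none was higher, and Il1a and Il6 were lower in YUMMER1.7 and those 2 with Ccl24 and Ccr1 in YUMM1.7. In fibroblastic cells, of 27 measured, Ccl5 and Csf3 were over 2-fold higher in YUMMER1.7 than in YUMM1.7 and Ackr2, Ccl3, Ccl4, Ccl6, Il1b and Tyrobp lower. Among genes with at least 50 UMIs, those lower were Ccl3, Ccl4 and Tyrobp. Ptprc was detected in 64.5% of YUMMER1.7 and 86.0% of YUMM1.7 cells of that fraction, and the part of leukocyte RNA in these differences was not tested. Il6, an inducer of CCL2, was 56.8 CPM in YUMMER1.7 and 57.7 CPM in YUMM1.7 fibroblastic cells, and Il34, the other CSF1R ligand, was 17.8 CPM in YUMMER1.7 and 27.5 CPM in YUMM1.7.

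The genes whose levels ran most like each member's, by Pearson r of log2(CPM + 1) over 36 class-by-library sums of the enriched fraction (13 classes and 11864 genes), were found as a description, with the members themselves left out. These points share libraries and depth. Ccl8 ran closest with C6 (r 0.912), Aspa and Cd5l, and Ccl12 with the scavenger receptor Marco (r 0.941), Col6a5 and Igf1. Among other genes Ccl2 ran closest with C3ar1 (r 0.896), Slc7a8 and Mknk1, and Ccl7 with Slc45a3 (r 0.939). Ccr2 ran closest with Gpr65 (r 0.854), Rnf166 and Ubl3, Csf1 with Erg (r 0.881), Klf5 and Klf7, and Csf1r with Lyz2 (r 0.966), Cx3cr1 and Clec4a3. In the depleted fraction, over 31 sums, 11 classes and 12662 genes, Ccl2 ran closest with Hgf (r 0.913) and Csf1r again with Lyz2 (r 0.953).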

How the data were processed

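Lymph node cells were profiled with the 10x GEM-X 3′ assay in 6 libraries, 1 per arm and fraction. The authors deposited raw UMI counts per gene and cell barcode for each library. Alignment to mm10 and counting used Cell Ranger 8.0.1, per the submitters' processing notes; the file headers of the depleted fraction name version 7.0.0, and the fractions differ in their gene lists, so they were kept apart and no level was compared between them. The depleted fraction is labelled as de-enriched for CD45, while its protocol speaks of positive enrichment of stroma with CD45 beads.

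Barcodes under 500 UMIs or 300 genes, or over 10% mitochondrial, were dropped, and the top 5% by a doublet score were removed, since the automatic call marked 1.72% to 3.00% of enriched cells and 0% of depleted ones. Counts scaled to 10000 per cell gave 2000 variable genes (without the 7 members), 30 components and Leiden clusters at resolution 1 (Python 3.11.15, scanpy 1.11.5, leidenalg 0.10.2, scipy 1.17.1). Clusters took the name of the marker list with at least 3 genes raised by 0.5 on the log2 scale; merging of the monocyte lists and leaving clusters under 0.333 of their libraries' median depth unnamed were decided after seeing the data. CPM is 1000000 times a summed count over all summed counts; ratios have exact conditional binomial intervals, shares Clopper-Pearson ones, at 95%, covering counting error only. Ratios need 10 UMIs in both libraries together, and 20 in each, as reported, to be recomputed under other settings. The counting statistics were tested on simulated counts. Named genes were all 7 members, the 6 lists and the 3 genes closest in pattern to each member among genes with 200 UMIs. The members and lists were chosen with earlier results of these data known.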

Additional observations from a re-analysis of the deposited data

How the results depend on the processing

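No paired analysis was possible because each arm has 1 library per fraction and no replicate numbers, so no replicate could be left out either. Over 540 recomputed log2 ratios, 431 stayed within the counting interval of the value reported and 109 did not. None of those past 2-fold changed sign, 514 kept their sign, and the cause of the moves was not tested. Thinning to 2000 UMIs moved the most, and since it leaves out cells below that number it changes the set of cells as well as the depth. Of 30 ratios in the class where a gene was highest, 6 then stayed within the interval, 24 did not, and 24 kept their sign. In what follows the ratios are YUMMER1.7 over naive, YUMM1.7 over naive and YUMMER1.7 over YUMM1.7, in that order where 3 are given. Ccl8 in macrophages, reported as 2.98, 3.28 and -0.30, was 3.05 and 3.34 (the first and second ratio) centred on the median gene, 3.10, 3.35 and -0.25 without doublet removal, 3.13 and -0.15 (the first and the third) at resolution 0.5, 3.07 and 3.36 at resolution 2, 3.29, 3.40 and -0.11 with the stricter cell filter, 2.66, 2.99 and -0.33 thinned to 2000 UMIs, and 2.16 and 2.45 with shallow clusters named, a setting chosen after seeing the data. Ccl12 in macrophages (0.20, 0.37 and -0.17) was 0.28 (first) when centred, 0.45 and -0.25 (the second and the third) at resolution 2, 0.073 and 0.061 (likewise) with the stricter filter, 0.29, 0.24 and 0.047 thinned, and 0.017 and 0.19 with shallow clusters named. Csf1r in macrophages (-0.10 and 0.02) was -0.24 and -0.19 thinned and 0.057 and 0.16 with shallow clusters named, so its sign was not stable. Ccr2 in monocytes (-0.62, -0.09 and -0.53) was -0.51, 0.081 and -0.59 thinned.

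In the mast cell or basophil class, the YUMMER1.7 to YUMM1.7 ratio in the enriched fraction was 1.63 thinned for Ccl2 (0.80) and 2.62 for Ccl7 (1.57); in the depleted fraction Ccl2 (0.68, -0.73 and 1.42) was 0.96 (the third) at resolution 0.5 and 0.21, -1.96 and 2.17 thinned, and Ccl7 (1.36, 0.32 and 1.05) was 0.67, -0.80 and 1.47 thinned. Ccr2 in depleted NK cells was 0.83 (second; 0.57) at resolution 2 and -0.33 and -0.84 (the first and the third; 0.16 and -0.42) thinned. Csf1r in the depleted class named cDC1 (0.98, -0.59 and 1.57) was 0.28, 0.082 and 0.19 without doublet removal, 0.18, -0.042 and 0.23 at resolution 2, and -0.30, -1.36 and 1.07 thinned. In the main setting that class is cluster 17, which also held monocyte and macrophage markers. Counting only genes with 50 UMIs, the list genes over 2-fold lower were 0 (1) and 1 (2) in macrophages, 1 (2) and 2 (4) in monocytes and 3 (6) in fibroblastic cells. Without cluster 5, the shallower of the neutrophil clusters, neutrophil Csf1 rested on 39 UMIs in YUMMER1.7, 1 in YUMM1.7 and 7 in naive cells, too few for a ratio to be read. Levels rest on few cells in the mast cell and naive stromal clusters, and their number limits precision there.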
